A study of Mus musculus with 20 samples.

Results

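Soleus from mice homozygous for the p.H222P change in *Lmna* was compared with soleus of wild-type (WT) mice at 200 days of age. The soleus, a calf muscle used in posture, is made largely of slow, oxidative fibers in its role as an endurance muscle. The comparison holds the 5 arrays titled for homozygous mutants of 200 days and the 5 titled for WT mice of that age, out of 20 arrays in the series. The other 10 arrays are from mice of 80 days, 5 per genotype, and they entered the fit only to steady the estimate of the spread, except where the difference at 80 days is named. Each gene was read by a probe set that carries exactly 1 gene symbol, and where a gene had several, by the brightest over the 20 arrays. By that rule 22180 genes were described, from 23521 of 35916 probe sets.

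Mutant and WT mice were of the 129S2/SvPasCrl strain, and according to the methods they were males. The mutant mice, called H222P here, carry the change on both copies of the gene in every cell, so the muscle fibers and the vessels, nerves, connective tissue and immune cells between them carry it too. The labels place H222P mice of 200 days at a stage with symptoms and those of 80 days before symptoms, and the study asked how gene expression in the muscle differs along the course of the dystrophy. The methods give the age of old mice as a range of months and the labels as 200 days. RNA came from whole muscle. Arrays of this kind measure how much *Lmna* RNA is present but cannot see the changed base, so genotype rests on the labels. Arrays are named by the numbers of their labels, and values are listed in the order 139, 601, 609, 6121 and 6122 for H222P and 107, 108, 24, 25 and 50 for WT. Nothing states that arrays 6121 and 6122 are separate animals beyond their numbers, and p-values measure the spread between these arrays.

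*Lmna* encodes lamins A and C, intermediate filament proteins that form a meshwork under the inner nuclear membrane, anchor chromatin and, through partners in the nuclear envelope, connect the nucleus to the cytoskeleton. Changes in the human gene cause Emery-Dreifuss muscular dystrophy, with wasting of skeletal muscle, early contractures and heart disease. Damaged skeletal muscle is repaired by satellite cells, which divide, fuse and build new sarcomeres from embryonic and cardiac isoforms of contractile proteins before adult isoforms replace them. Muscle that loses its nerve turns on synaptic genes along the whole fiber.

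Each value is a log2 signal after robust multichip analysis, which corrects for background, normalizes arrays to each other and summarises the probes of a probe set. A difference of 1 is thus 2-fold. Array medians were 3.98 to 4.09, and the values come with no detection call. Arrays within a genotype correlated at 0.976 to 0.987 and arrays of different genotypes at 0.967 to 0.983. On the first principal component of the 10 arrays (27.1% of the variance), H222P arrays ran from 14.6 to 43.9 and WT arrays from −29.4 to −22.4. WT array 108 lay apart on the second component (14.2%), at 50.5 against −15.8 to 18.1 for the rest, and H222P array 601 lay at the far end of the first. Some of the results that rest on these arrays are given without them as well. *Tnnc1*, slow troponin C, a marker of slow muscle, read 12.22, 11.91, 12.09, 12.06 and 12.08 in H222P and 12.11, 12.06, 12.20, 12.12 and 12.38 in WT. The mean of the slow fiber list ran from 9.05 to 9.63 in H222P and from 9.43 to 9.74 in WT. That of the fast fiber list ran from 10.17 to 10.50 in H222P and from 9.56 to 10.82 in WT. The purity of the dissected muscle was not tested.

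In H222P soleus 191 genes were higher and 25 lower than in WT at an adjusted p under 0.05 (limma, Benjamini-Hochberg over all probe sets) and a difference of at least 2-fold, which is 0.861% and 0.113% of the genes tested. These are referred to as called. Over all 35916 probe sets 337 were called (0.938%), of which 294 were higher (0.819%) and 43 lower (0.120%). At the adjusted p alone 2224 genes passed, with 1308 higher (5.90%) and 916 lower (4.13%), and the groups did not overlap for 1966 genes (8.86%). The median difference over all genes was −0.01. In brackets, a value directly after a gene is its log2 difference (H222P minus WT), and a value after a fold change, a pass or a missed threshold is its adjusted p. Of the 191 higher genes 169 encode proteins, 179 had groups that do not overlap and 23 were at least 4-fold higher. A model name alone, with no product, was carried by 23 of them. Of the 25 lower genes 20 encode proteins, and none was 4-fold lower. In a tissue of many cell types, fewer cells of a type and less RNA per cell cannot be told apart.

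**Figure D1:**
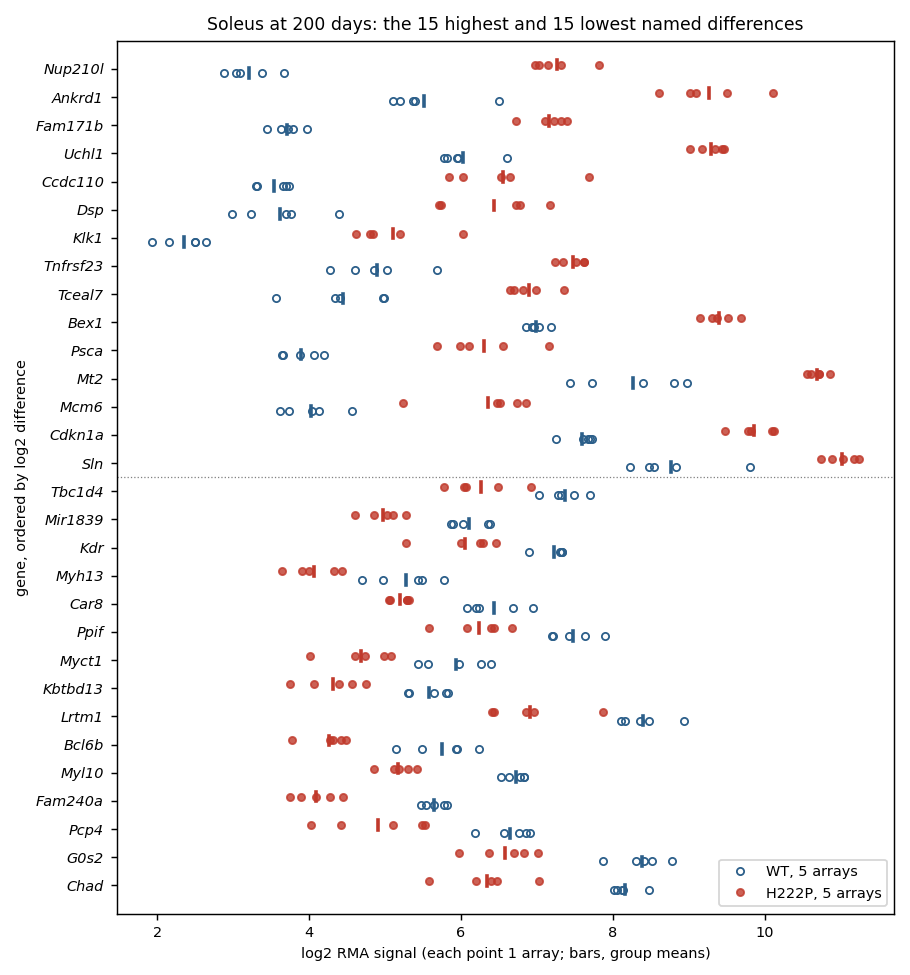
Log2 signal of the 15 genes with the highest and the 15 with the lowest difference among called genes whose groups do not overlap (x axis, log2 signal; y axis, genes; filled points, 5 H222P arrays; open points, 5 WT arrays; bars, group means). *Nup210l*, in the top row, stood at 6.98 to 7.81 in H222P and at 2.88 to 3.67 in WT.

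The highest difference was that of *Nup210l*, which encodes a protein related to the pore membrane nucleoporin Nup210 and is known from testis. It read 7.81, 6.98, 7.15, 7.03 and 7.31 in H222P arrays and 3.04, 3.38, 3.09, 2.88 and 3.67 in WT arrays. All 5 WT values lay in the low part of the scale and all 5 H222P values in its middle, and the gene was 16.5-fold higher (log2 difference 4.05, SE 0.16, adjusted p = 1.59e-12). Its relative *Nup210* went the other way, at 5.29, 5.24, 5.06, 5.18 and 5.30 in H222P and 5.59, 5.82, 5.75, 5.71 and 5.58 in WT (log2 difference −0.48, SE 0.08, adjusted p = 5.58e-04).

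*Ankrd1* encodes an ankyrin repeat protein that binds titin in the sarcomere and responds to stretch. It read 9.50, 10.11, 9.09, 8.60 and 9.01 in H222P and 5.39, 6.50, 5.11, 5.37 and 5.19 in WT, where array 108 was the highest, and was 13.5-fold higher (log2 difference 3.75, SE 0.35, adjusted p = 4.23e-07). *Fam171b*, which encodes a membrane protein, read 7.40, 7.10, 7.32, 6.72 and 7.23 in H222P and 3.63, 3.72, 3.45, 3.79 and 3.97 in WT (log2 difference 3.45, SE 0.22, adjusted p = 3.01e-09). *Uchl1* encodes a ubiquitin hydrolase best known from neurons, and it read 9.46, 9.34, 9.44, 9.02 and 9.17 in H222P and 5.81, 5.78, 5.95, 5.96 and 6.61 in WT (log2 difference 3.26, SE 0.21, adjusted p = 3.04e-09). For all of these the lowest H222P array was above the highest WT array, as the rule that named the highest genes required.

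The other leading genes came from unlike families. *Dsp*, desmoplakin, which ties intermediate filaments to cell junctions, was 7.02-fold higher (6.43 ± 0.66 against 3.61 ± 0.54, mean ± SD, n = 5). *Ccdc110*, a coiled-coil protein, was 8.05-fold higher and *Psca*, a surface protein on a lipid anchor, 5.31-fold. *Klk1*, a kallikrein protease, rose 6.73-fold and *Tnfrsf23*, a mouse decoy receptor for the death ligand TRAIL, 5.97-fold. Both belong to families of close copies on chromosome 7, so the member behind the signal is uncertain. Adjusted p of these genes ran from 1.72e-07 to 7.08e-06.

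Among the lowest, *Chad*, which encodes the cartilage matrix protein chondroadherin, read 6.47, 5.58, 7.03, 6.20 and 6.40 in H222P and 8.12, 8.47, 8.13, 8.02 and 8.05 in WT (3.54-fold lower, log2 difference −1.82, SE 0.24, adjusted p = 3.70e-05). *G0s2*, an inhibitor of the fat-splitting lipase ATGL, read 7.01, 6.83, 6.70, 6.37 and 5.97 in H222P and 8.41, 8.78, 8.51, 7.87 and 8.30 in WT (3.48-fold lower, log2 difference −1.80, SE 0.26, adjusted p = 1.23e-04). *Pcp4*, a small calmodulin-binding protein, read 5.10, 5.49, 5.52, 4.42 and 4.02 in H222P and 6.91, 6.85, 6.57, 6.18 and 6.76 in WT (3.35-fold lower, log2 difference −1.74, SE 0.23, adjusted p = 4.48e-05). The groups of each were apart, as the rule that named the lowest genes required, and H222P arrays spread more widely than WT arrays in all 3. *Fam240a*, *Myl10*, a myosin light chain, and *Lrtm1* were 2.95-, 2.92- and 2.82-fold lower. *Myh13*, the myosin of eye muscles, fell by 1.21 (adjusted p = 2.15e-04), *Tbc1d4*, a brake on glucose transporter traffic, by 1.11 and *Ppif*, cyclophilin D of the mitochondrial matrix, by 1.24 on the log2 scale.

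Of 24 measured genes of the nuclear envelope 3 were higher (12.5%, against 5.90% of all genes) and 1 lower (4.17%, against 4.13%), with a median difference of −0.07. The counts of every list below stand against the same shares of all genes. *Lmna* itself read 7.30, 7.51, 7.57, 7.37 and 7.19 in H222P and 6.46, 6.96, 6.30, 6.78 and 6.72 in WT, and was 1.67-fold higher (log2 difference 0.74, SE 0.12, adjusted p = 2.73e-04). *Tmem43*, which encodes the inner membrane protein LUMA, read 7.29, 6.94, 6.92, 7.24 and 7.24 in H222P and 6.13, 5.96, 5.07, 5.93 and 5.91 in WT, where array 24 was low (2.51-fold, log2 difference 1.33, SE 0.18, adjusted p = 4.43e-05).

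*Nup210l* lies on chromosome 3 with *Lmna*, with 59 measured genes between them in the order of RefSeq starts. Among the 100 measured genes on each side of *Lmna*, a window chosen after the values were seen, 6 were called (3.0%), all of them higher, against 0.974% over all genes. On the whole chromosome 15 of 1051 genes were called (1.43%), and 0.951% of the genes elsewhere. Besides *Nup210l* the 6 were *S100a4*, a calcium-binding protein (1.48), *Rab13*, a small GTPase of vesicle traffic (1.44), *Nes*, the intermediate filament nestin of immature muscle (1.12), *Rxfp4*, a peptide hormone receptor (1.09), and *Kcnn3*, a calcium-gated potassium channel of denervated muscle (1.03). Their adjusted p ran from 1.59e-12 to 0.00177, and apart from *Kcnn3*, *Nup210l* and *S100a4* they were named after their values were seen.

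**Figure D2:**
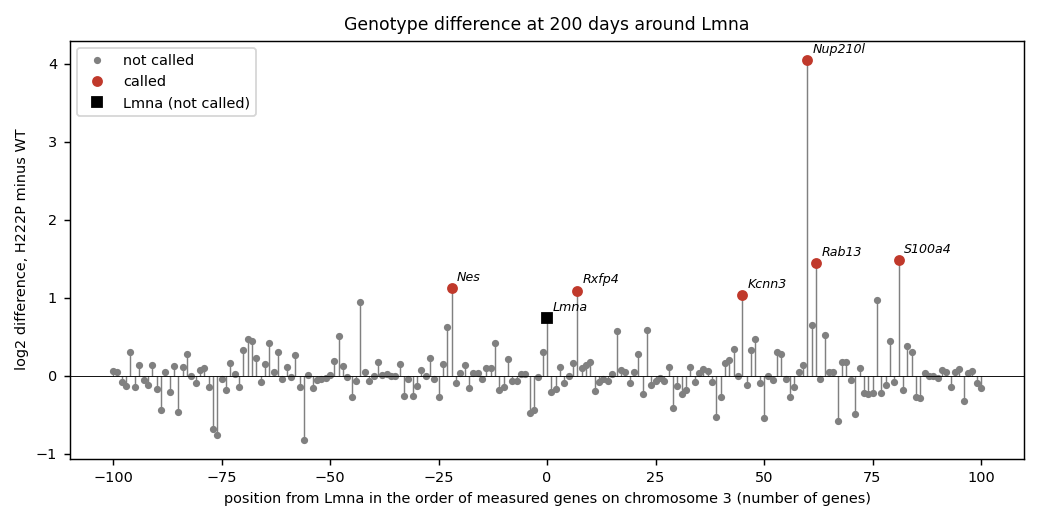
Log2 difference (y axis, H222P minus WT at 200 days) of the 100 measured genes on each side of *Lmna*, in gene order (x axis, number of genes from *Lmna*). Red points mark the 6 called genes, all higher, and the square marks *Lmna* at 0.74.

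The isoforms that embryonic muscle and heart use showed the widest change of any sarcomere list: 7 of 10 measured genes were higher and none lower, with a median difference of 1.31, and 5 were at least 2-fold higher. *Myl4*, the atrial and embryonic light chain, read 7.38, 7.03, 7.18, 7.10 and 7.40 in H222P and 4.89, 5.18, 5.21, 5.17 and 5.02 in WT (4.37-fold, log2 difference 2.13, SE 0.22, adjusted p = 2.42e-06). *Myh3*, embryonic myosin, read 8.07, 7.96, 7.74, 7.10 and 7.53 in H222P and 5.66, 4.96, 6.15, 5.38 and 5.83 in WT (4.25-fold, log2 difference 2.09, SE 0.21, adjusted p = 1.10e-06). *Myh8*, perinatal myosin, was 4.12-fold higher (9.09 ± 0.54 against 7.04 ± 0.39). *Actc1*, cardiac actin, read 9.96, 9.42, 9.63, 9.57 and 9.62 in H222P and 7.76, 8.17, 7.59, 7.85 and 8.26 in WT (3.27-fold, log2 difference 1.71, SE 0.17, adjusted p = 1.57e-06), and *Tnnt2*, cardiac troponin T, was 3.22-fold higher (9.49 ± 0.37 against 7.80 ± 0.26). No array of either group crossed into the other for these genes, and the count stayed at 7 with each array left out in turn.

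Lists of Z-disc and filament genes had members in both directions and medians near 0. Among 29 Z-disc genes 5 were higher and 3 lower (median 0.03), among 20 thin filament genes 5 and 4 (median −0.05), and among 19 thick filament and M-band genes 2 and 3 (median −0.03). *Ankrd1* is among the higher Z-disc genes, and the cardiac *Actc1* and *Tnnt2* counted above are among the higher thin filament genes. In a fit of the 10 arrays of 200 days alone these counts were 3 and 1, 4 and 1, and 1 and 1. The 5 higher Z-disc genes were 3 without H222P array 139 or 6122 or WT array 107 or 50, the 4 lower thin filament genes 1 or 2 with any 1 of 7 arrays left out, and the 2 higher thick filament genes 1 without WT array 24 or 50. *Pdlim5*, a Z-disc adaptor, was 1.70-fold higher (log2 difference 0.77, SE 0.09, adjusted p = 7.15e-06) and *Pdlim7* 1.58-fold lower (log2 difference −0.66, SE 0.11, adjusted p = 3.12e-04). *Kbtbd13*, a thin filament protein altered in human nemaline myopathy, read 4.06, 3.75, 4.39, 4.75 and 4.57 in H222P and 5.30, 5.80, 5.83, 5.32 and 5.64 in WT (2.42-fold lower, log2 difference −1.27, SE 0.17, adjusted p = 4.10e-05). *Klhl40*, which steadies nebulin and leiomodin, went up 1.68-fold (log2 difference 0.75, SE 0.11, adjusted p = 7.56e-05), and *Tmod1*, which caps thin filaments, 1.50-fold (log2 difference 0.58, SE 0.13, adjusted p = 0.00785).

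The smaller Z-disc and filament differences depended on the arrays in the fit. *Xirp1* (0.76, adjusted p = 0.0195) missed the threshold without H222P array 601 or WT array 50 (0.0522 to 0.0627). *Csrp3* (0.45), *Fhl1* (0.31), *Fhl3* (−0.34), *Klhl41* (0.24), *Tmod4* (−0.33), *Lmod3* (−0.30) and *Tpm2* (−0.25) each missed it with any 1 of 4 to 9 arrays left out and in the 10 arrays alone. *Myom2* (0.56) missed it without WT array 24 or 50, up to an adjusted p of 0.0546, and in the 10 arrays alone (0.0635), and *Ankrd23* (−0.60) in the 10 arrays alone (0.0995).

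Slow fiber genes were lower in 4 of 13 cases and higher in 1, and no gene of 14 in the fast fiber list passed the test (limma), with 1 lower at an unadjusted p under 0.05. The 4 were 2 in the 10 arrays alone, and the 1 was 2 without H222P array 601 or 609 or WT array 50. *Myh7*, slow myosin, read 10.73, 9.51, 9.97, 10.64 and 10.40 in H222P and 10.96, 10.59, 10.78, 10.79 and 11.08 in WT, with array 601 lowest (log2 difference −0.59, SE 0.17, adjusted p = 0.0294). Its adjusted p was 0.0667 to 0.0831 without H222P array 601 or 609 or WT array 107 or 50, and 0.138 in the 10 arrays alone. *Myh7b* (−0.64, adjusted p = 0.00503) and *Myl3*, a slow light chain (−0.50, adjusted p = 0.0137), were lower and *Myl6b*, another slow light chain, higher (0.89, adjusted p = 0.00785). *Myl3* missed the threshold in the 10 arrays alone (0.0889). The fast myosin *Myh4* read 7.42, 10.77, 9.70, 10.77 and 7.94 in H222P and 11.34, 10.98, 6.83, 10.42 and 5.86 in WT, so it ran over several units within each genotype. *Actn3*, the fast-fiber actinin, read 9.71, 10.10, 9.57, 9.70 and 9.24 in H222P and 10.28, 10.13, 6.68, 8.92 and 6.37 in WT, and ran over several units in WT, with arrays 24 and 50 lowest, and less in H222P. The groups of both overlapped (adjusted p = 0.942 and 0.266).

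Of 478 miRNA genes measured, 6 were higher and 3 lower at the adjusted p, smaller shares than the 5.90% and 4.13% of all genes. Called were 3 of them, also a smaller share than the 0.974% over all genes. *Mir208b* lies in an intron of *Myh7* and *Mir499* in *Myh7b*, and both are known to favour the slow fiber program, while *Mir208a* belongs to the cardiac *Myh6*. The array reads the precursor and does not tell the arms apart. The mature forms of the 3 called genes and the 2 relatives of miR-208b are printed to show the seed, bases 2 to 8, in capitals (RefSeq, GRCm38.p6, all 5 genes matched).
mmu-miR-208b-3p: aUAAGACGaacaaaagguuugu
mmu-miR-208a-3p: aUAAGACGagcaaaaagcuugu
mmu-miR-499-5p: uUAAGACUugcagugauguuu
mmu-miR-128-3p: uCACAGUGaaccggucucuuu
mmu-miR-1839-5p: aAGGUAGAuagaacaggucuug
The miR-208b and miR-208a arms share the seed UAAGACG, and that of miR-499 is UAAGACU. *Mir208b* (chr14:54975710-54975731, minus strand) read 5.32, 3.33, 4.52, 4.49 and 4.21 in H222P and 6.02, 5.59, 5.28, 5.91 and 5.95 in WT (2.60-fold lower, log2 difference −1.38, SE 0.29, adjusted p = 0.00342). H222P array 139 overlapped the lowest WT array, and array 601 was lowest of all. *Mir499* (−0.35, adjusted p = 0.364) and *Mir208a* (0.17, 0.644) did not pass. *Mir1839* (chr7:81529919-81529940, plus strand) read 5.10, 4.60, 5.02, 5.27 and 4.85 in H222P and 6.35, 6.38, 5.87, 5.89 and 6.03 in WT (2.19-fold lower, log2 difference −1.13, SE 0.17, adjusted p = 1.80e-04). The groups did not overlap, as the rule that named it required. *Mir128-1* (chr1:128202404-128202424, plus strand) was 2.12-fold higher (4.14 ± 0.30 against 3.05 ± 0.59, log2 difference 1.08, SE 0.25, adjusted p = 0.00729) and was named after its values were seen, as were *Mir499* and *Mir208a*.

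Among genes of calcium handling, *Sln*, sarcolipin, which uncouples the calcium pump of the sarcoplasmic reticulum, read 11.17, 10.88, 10.74, 11.03 and 11.24 in H222P and 8.54, 8.47, 8.22, 8.83 and 9.81 in WT, where array 50 was highest (4.72-fold, log2 difference 2.24, SE 0.24, adjusted p = 3.30e-06). *Ryr1*, the calcium release channel, was 1.52-fold lower (log2 difference −0.60, SE 0.12, adjusted p = 0.00232), and *Asph*, whose products include junctin, 1.36-fold higher (log2 difference 0.44, SE 0.08, adjusted p = 7.84e-04). With the mean of all its probe sets in place of the brightest, *Asph* did not pass (log2 difference 0.13, adjusted p = 0.608). Of 27 measured genes of the list 4 were higher (14.8%, against 5.90% of all genes) and 3 lower (11.1%, against 4.13%), *Pcp4* being among the lower ones. The others that passed, *Ryr3* (0.39), *Camk2d* (0.35) and *Camk2g* (−0.45), missed the threshold in the 10 arrays alone (0.0596 to 0.0717), which left 2 of the 4, and *Camk2d* also with any 1 of 7 arrays left out.

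Genes that rise in denervated muscle or belong to the neuromuscular junction were higher in 8 of 19 cases and lower in none (median 0.31), and 7 or 8 with each array left out. *Myog*, myogenin, a transcription factor of muscle differentiation, read 6.78, 6.87, 7.06, 6.51 and 6.82 in H222P and 5.04, 4.99, 5.26, 5.19 and 5.37 in WT (3.11-fold, log2 difference 1.64, SE 0.14, adjusted p = 1.72e-07). *Ncam1*, an adhesion molecule that spreads over denervated fibers, read 7.59, 7.39, 7.37, 7.14 and 7.23 in H222P and 5.61, 6.33, 5.95, 5.60 and 6.30 in WT (2.61-fold, log2 difference 1.39, SE 0.16, adjusted p = 7.21e-06). *Chrng*, the fetal subunit of the acetylcholine receptor, was 2.10-fold higher (5.39 ± 0.50 against 4.32 ± 0.28, log2 difference 1.07, SE 0.22, adjusted p = 0.00289). Myogenin and its relatives bind E-boxes. The 250 bases before the RefSeq start of *Chrng* (chr1:87205561-87205810, plus strand) are shown with the E-box CAGCTG in capitals, which has the same letters on both strands.
Chrng: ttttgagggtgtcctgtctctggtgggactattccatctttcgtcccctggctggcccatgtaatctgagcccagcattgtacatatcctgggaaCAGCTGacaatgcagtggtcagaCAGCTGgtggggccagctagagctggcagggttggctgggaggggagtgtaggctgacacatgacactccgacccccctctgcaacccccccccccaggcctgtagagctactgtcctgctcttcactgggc
It stands there 2 times, and 1.26% of 32851 RefSeq promoter windows of that length held at least 2. Of the 14 members of the list with a window 5 held it, and of the 7 higher ones *Chrng* alone. A match of letters shows no binding.

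The list of satellite cell and regeneration genes had 7 of 22 higher and 1 lower (median 0.24), with *Myog*, *Myh3* and *Myh8* among the higher ones. *Mymk*, myomaker, which fuses myoblasts, read 5.48, 5.35, 6.26, 5.06 and 5.41 in H222P and 3.66, 4.64, 3.50, 3.75 and 3.63 in WT, where array 108 was highest (3.20-fold, log2 difference 1.68, SE 0.25, adjusted p = 1.46e-04). The markers of resting satellite cells, *Pax7* (0.26) and *Myf5* (0.25), did not pass (adjusted p = 0.538 and 0.386). *Notch3*, a receptor of satellite cells and pericytes, was the lower gene (−0.46, adjusted p = 0.0251), and missed the threshold with any 1 of 5 arrays left out.

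At the membrane, where dystrophin and the costameres tie the sarcomere to the matrix, 4 of 22 genes were higher and 2 lower. *Itga7* and *Itgb1*, the laminin receptor of muscle, rose 1.52- and 1.49-fold (1.46e-04 and 9.36e-04, adjusted). *Dmd*, dystrophin, read 8.85, 8.43, 8.65, 9.01 and 8.99 in H222P and 9.38, 9.16, 9.18, 9.14 and 9.40 in WT (1.38-fold lower, log2 difference −0.47, SE 0.11, adjusted p = 0.00661). *Nos1*, the nitric oxide synthase of the complex, was the other lower gene (−0.64, adjusted p = 0.0342) and missed the threshold with any 1 of 6 arrays left out. *Dmd* missed it in the 10 arrays alone (0.0502), as did the keratin gene *Krt18* (0.0505), which was 2.14-fold higher in the fit of all 20 arrays. Among 34 genes of actin dynamics 6 were higher and none lower, with the median at 0.01. The 6 were 3 without H222P array 139 or WT array 25, and with the arrays centred on their medians 2 genes were lower. *Pfn1*, profilin, read 9.27, 9.29, 9.27, 8.97 and 9.26 in H222P and 8.51, 8.90, 8.51, 8.48 and 8.61 in WT (1.53-fold, log2 difference 0.61, SE 0.10, adjusted p = 2.73e-04). *Wasl*, which encodes N-WASP, an activator of branching, read 7.25, 7.27, 7.14, 7.26 and 6.96 in H222P and 6.74, 6.42, 6.52, 6.68 and 6.59 in WT (1.50-fold, log2 difference 0.58, SE 0.10, adjusted p = 4.89e-04), and *Actr3* of the Arp2/3 complex was 1.37-fold higher (0.00329). The cofilins that cut filaments, *Cfl1* (0.22, adjusted p = 0.267) and *Cfl2* (0.02, 0.931), did not pass, and the sign of *Cfl2* turned with the processing. These values are of RNA. By immunoblot the study reported more cofilin-1 protein and less profilin-1 protein in old H222P soleus. The study followed ERK signalling in this muscle. Among 23 genes of that list 1 was higher (4.35%, against 5.90% of all genes) and 2 lower (8.70%, against 4.13%). *Spry4*, an inhibitor (−0.85), and *Map2k2*, the kinase MEK2 (−0.49), fell (0.0116 and 0.00281), and *Phlda1* (0.41) missed the threshold in the 10 arrays alone (0.0701). The higher ones were 2 or 3 without H222P array 601 or 6122 or WT array 108 or 50.

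Targets of the transcription factor p53 were higher in 7 of 27 cases and lower in none (median 0.25), and 1 was lower with median centring or without WT array 50. *Cdkn1a*, the cell cycle inhibitor p21, read 10.12, 9.47, 10.10, 9.82 and 9.78 in H222P and 7.73, 7.25, 7.70, 7.67 and 7.61 in WT (4.81-fold, log2 difference 2.27, SE 0.18, adjusted p = 6.02e-08). *Eda2r*, a receptor for ectodysplasin, read 6.70, 6.40, 6.16, 6.49 and 6.44 in H222P and 5.15, 4.96, 4.56, 5.08 and 4.80 in WT (2.88-fold, log2 difference 1.53, SE 0.13, adjusted p = 1.34e-07), and *Trp53inp1* and *Sesn1* were 2.94- and 1.97-fold higher (2.46e-07 and 1.39e-05). The groups of all of these were apart. Cell cycle genes were higher in 5 of 24 cases, *Cdkn1a* included. *Mcm6*, a subunit of the replicative helicase, read 5.23, 6.74, 6.85, 6.48 and 6.51 in H222P, with array 139 lowest, and 4.04, 4.56, 4.13, 3.73 and 3.62 in WT (5.08-fold, log2 difference 2.34, SE 0.26, adjusted p = 6.23e-06). *Ccnd1* and *Ccne1*, cyclins of the start of the cycle, rose 1.67- and 1.56-fold (0.00189 and 7.56e-05).

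Several stress programs had members with large rises. Of 21 genes of metal and oxidant defence 7 were higher and 2 lower. *Mt2* encodes a metallothionein, a small cysteine-rich buffer of zinc and copper, and read 10.86, 10.71, 10.71, 10.56 and 10.61 in H222P and 8.98, 8.81, 7.44, 8.40 and 7.73 in WT (5.33-fold, log2 difference 2.41, SE 0.24, adjusted p = 1.49e-06), and its neighbour *Mt1* was 2.09-fold higher (9.17 ± 0.18 against 8.11 ± 0.26, log2 difference 1.06, SE 0.13, adjusted p = 1.15e-05). H222P arrays lay close together for *Mt2* (SD 0.11), while WT arrays were spread (SD 0.67), with arrays 24 and 50 lowest. *Gclc*, which makes glutathione, and *Gpx1* rose 1.92- and 1.61-fold (6.21e-05 and 0.00152). *Tfrc*, the transferrin receptor that imports iron, was 2.37-fold lower (log2 difference −1.24, SE 0.25, adjusted p = 0.00264), and *Sod2*, the mitochondrial superoxide dismutase, 1.37-fold lower (0.00230). Metallothioneins are turned on by zinc through metal response elements. The 250 bases before the starts of *Mt2* (chr8:94172368-94172617) and *Mt1* (chr8:94178839-94179088), both on the plus strand, are shown with TGCNCNC, searched on both strands, in capitals.
Mt2: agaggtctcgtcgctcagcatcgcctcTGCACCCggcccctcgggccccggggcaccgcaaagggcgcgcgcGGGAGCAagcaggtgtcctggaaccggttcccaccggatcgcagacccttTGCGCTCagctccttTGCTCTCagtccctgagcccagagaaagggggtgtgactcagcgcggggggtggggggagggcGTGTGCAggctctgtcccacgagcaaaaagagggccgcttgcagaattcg
Mt1: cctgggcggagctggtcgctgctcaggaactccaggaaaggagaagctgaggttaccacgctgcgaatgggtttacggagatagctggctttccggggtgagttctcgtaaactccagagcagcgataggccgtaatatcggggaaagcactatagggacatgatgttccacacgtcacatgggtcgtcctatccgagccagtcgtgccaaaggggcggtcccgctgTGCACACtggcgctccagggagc
In these windows *Mt2* held 5 matches and *Mt1* held 1, while 44.4% of all windows held at least 1 and 0.344% at least 5. The windows depend on the annotated starts, and matches outside them were not counted, so these are not the total elements of either gene. Of the 16 members of the list with a window 9 held a match, and of the 5 higher ones 3.

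Heat shock proteins were higher in 6 of 18 cases, and in 4 to 7 with each array left out. *Hspa1b*, an inducible chaperone of the Hsp70 family, read 8.94, 9.95, 8.82, 8.51 and 8.45 in H222P and 6.29, 6.98, 6.59, 7.43 and 6.39 in WT (4.59-fold, log2 difference 2.20, SE 0.27, adjusted p = 2.02e-05), and *Hspa1a*, its near-identical neighbour, whose signal may not be its own, 2.41-fold (1.24e-04). The small heat shock proteins *Hspb8* and *Hspb1*, which guard the sarcomere, rose 2.14- and 1.96-fold (9.81 ± 0.20 against 8.71 ± 0.14 and 10.22 ± 0.18 against 9.25 ± 0.18). The window before *Hspa1b* (chr17:34959239-34959488, minus strand), which is the same as that of *Hspa1a* at 247 of 250 bases, is shown with the heat shock element GAANNTTC, the same on both strands, in capitals.
Hspa1b: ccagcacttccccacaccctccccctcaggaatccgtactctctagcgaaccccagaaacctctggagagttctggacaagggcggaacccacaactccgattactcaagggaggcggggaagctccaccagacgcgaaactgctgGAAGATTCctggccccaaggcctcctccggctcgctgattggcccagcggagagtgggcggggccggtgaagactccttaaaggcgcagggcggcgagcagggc
It held 1 match, and 6.69% of all windows held at least 1. Of the 15 members of the list with a window 7 held it, and of the 5 higher ones 3, *Hspa1a* and *Hspa1b* among them.

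In the integrated stress response, which slows translation and turns on amino acid supply, 5 of 24 genes were higher and 1 lower, and 3 were higher without H222P array 139 or WT array 24. *Atf3*, a transcription factor of the response, read 6.70, 8.14, 6.90, 8.04 and 7.75 in H222P and 5.98, 5.84, 5.77, 6.68 and 5.69 in WT (2.86-fold, log2 difference 1.52, SE 0.33, adjusted p = 0.00442). *Slc7a5*, an importer of large amino acids, read 7.05, 6.22, 6.75, 6.42 and 6.31 in H222P and 5.40, 5.27, 4.61, 4.99 and 5.52 in WT (2.62-fold, log2 difference 1.39, SE 0.17, adjusted p = 1.81e-05), and *Psat1*, of serine synthesis, was 1.73-fold higher (0.00192). *Ddit4* (1.14), *Slc3a2* (0.42) and *Atf5* (−0.38) missed the threshold with any 1 of 6 arrays left out (up to 0.105). The window before *Atf3* (chr1:191183334-191183583, minus strand) is shown with the amino acid response element TGATGNAA, searched on both strands, in capitals.
Atf3: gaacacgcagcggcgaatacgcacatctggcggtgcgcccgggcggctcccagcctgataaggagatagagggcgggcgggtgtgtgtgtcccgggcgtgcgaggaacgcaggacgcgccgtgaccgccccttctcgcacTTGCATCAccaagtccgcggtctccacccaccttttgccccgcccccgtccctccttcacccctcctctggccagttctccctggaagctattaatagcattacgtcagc
It held 1 match and 3.45% of all windows held at least 1. Of the 22 members of the list with a window 8 held it, and of the 4 higher ones *Atf3* alone. No match of any of these motifs overlapped that of another in the windows printed. Of 13 chaperones of the endoplasmic reticulum, *Dnajb9* (0.51) and *Dnajc3* (0.28) passed, and neither did in the 10 arrays alone (0.0647 and 0.161) or without H222P array 139 or 601 or WT array 50.

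**Figure D3:**
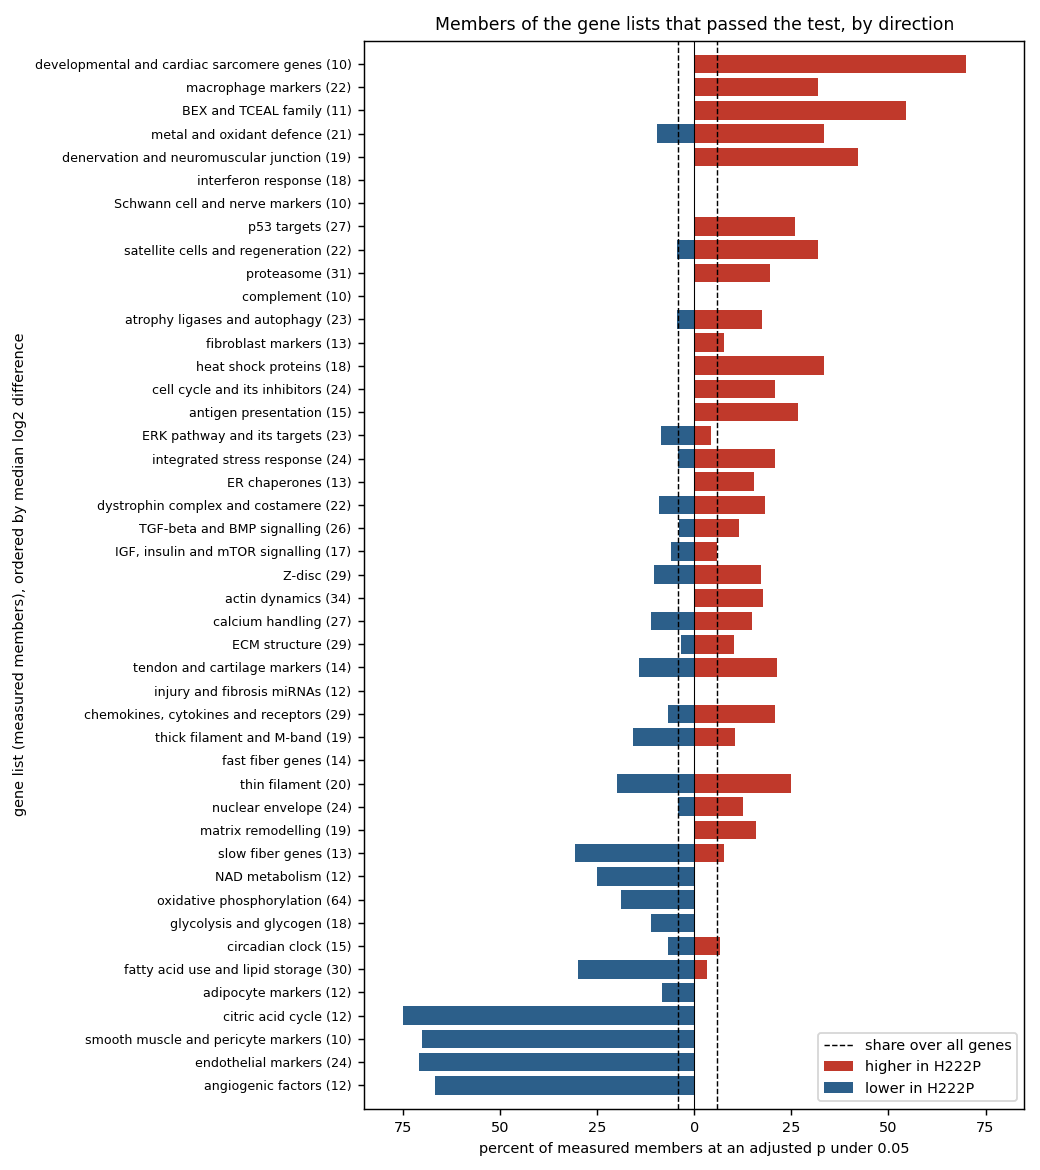
Share of the measured members of each gene list (y axis, number measured in brackets) at an adjusted p under 0.05 (x axis, percent; right, higher in H222P; left, lower). Dashed lines mark the shares over all genes, 5.90% higher and 4.13% lower. The endothelial, perivascular, angiogenic and citric acid cycle lists had 66.7% to 75% of their members lower.

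Small X-linked proteins of the BEX and TCEAL family, which are named from nerve and from transcription elongation, were higher in 6 of 11 cases and lower in none (median 0.48). *Tceal7* read 6.99, 7.36, 6.81, 6.70 and 6.64 in H222P and 4.97, 4.98, 4.34, 3.57 and 4.41 in WT (5.45-fold, log2 difference 2.45, SE 0.23, adjusted p = 6.72e-07). *Bex1*, which is known from regenerating mouse muscle, read 9.51, 9.68, 9.37, 9.15 and 9.30 in H222P and 6.94, 7.03, 6.96, 6.85 and 7.19 in WT (5.32-fold, log2 difference 2.41, SE 0.14, adjusted p = 1.31e-09). *Bex3* and *Tceal5* were 2.67- and 2.50-fold higher (5.29e-05 and 7.06e-07). Among growth signals, *Igf2*, the fetal insulin-like growth factor, read 7.52, 7.12, 7.17, 6.83 and 6.93 in H222P and 5.09, 5.67, 5.62, 5.78 and 5.52 in WT (2.99-fold, log2 difference 1.58, SE 0.14, adjusted p = 2.37e-07). It was the 1 higher gene of 17 in IGF, insulin and mTOR signalling (5.88%, against 5.90% of all genes). That list had 1 lower gene, *Igfbp7* (5.88%, against 4.13%), and a median of 0.04. *Gdf11*, a ligand of the TGF-beta family, read 7.10, 6.54, 6.80, 6.41 and 6.13 in H222P and 4.94, 4.77, 4.68, 4.42 and 4.59 in WT (3.76-fold, log2 difference 1.91, SE 0.16, adjusted p = 1.34e-07), and follistatin, *Fst*, which binds such ligands, was 2.16-fold higher (4.54e-05). In the list of TGF-beta and BMP signalling 3 of 26 genes were higher and 1 lower, *Smad3* (−0.44), which missed the threshold with any 1 of 7 arrays left out. The polyamine enzymes *Sat1*, which breaks polyamines down, and *Odc1*, which makes them, were 3.05- and 1.89-fold higher (7.65 ± 0.26 against 6.04 ± 0.18 and 7.25 ± 0.07 against 6.33 ± 0.33).

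Genes that degrade protein were higher in part and by small amounts. Of 31 proteasome genes 6 were higher and none lower (median 0.19), but with the arrays centred on their medians 3 were, in the 10 arrays alone 2, and without H222P array 139 3. *Psmd8* of the lid was 1.50-fold higher (log2 difference 0.59, SE 0.10, adjusted p = 3.96e-04), and *Psma5* 1.82-fold from a low level (3.43 ± 0.21 against 2.57 ± 0.30). Of 23 genes of the list of ubiquitin and autophagy genes 4 were higher, led by the hydrolase gene *Uchl1*. *Traf6* (0.50) and *Fbxo30* (0.41) missed the threshold in the 10 arrays alone (0.0649 and 0.0618), and *Traf6* also without H222P array 139 or 6121 or WT array 24. *Sqstm1*, the autophagy receptor p62, rose 1.29-fold (log2 difference 0.37, SE 0.08, adjusted p = 0.00664). *Map1lc3b*, which coats autophagosomes, was 1.42-fold lower (0.0161) but not in the 10 arrays alone (0.0927).

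Matrix genes split. Of 29 structural genes 3 were higher (10.3%, against 5.90% of all genes) and 1 lower (3.45%, against 4.13%). Of their differences 14 were positive and 15 negative. *Postn*, periostin, which marks remodelling matrix, read 9.14, 9.10, 8.88, 8.46 and 9.09 in H222P and 6.25, 8.67, 6.72, 6.53 and 6.76 in WT (3.85-fold, log2 difference 1.95, SE 0.31, adjusted p = 2.98e-04). WT array 108 overlapped the H222P arrays and the other WT arrays lay well below them. *Col8a1*, a short-chain collagen, was 2.08-fold higher (6.57 ± 0.19 against 5.51 ± 0.39). The fibrillar collagens *Col1a2* (0.14, adjusted p = 0.790) and *Col3a1* (0.51, 0.264) and the connective tissue growth factor gene *Ccn2* (0.52, 0.196) did not pass. The study measured these genes by RT-qPCR and tied their transcript levels to fibrosis seen in sections of old H222P soleus. Without WT array 108, *Col3a1* passed at 0.80 (adjusted p = 0.0138) and 6 structural genes were higher instead of 3. *Thbs4* (0.52) and *Fmod* (−0.62) missed the threshold with any 1 of 7 and of 3 arrays left out. In remodelling, *Ctsk*, a collagen-cutting cathepsin, *Mmp12*, a macrophage elastase, and *Timp2*, an inhibitor of such proteases, were 1.78-, 1.61- and 1.51-fold higher (0.00929, 0.00569 and 0.00337), out of 19 genes.

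Macrophage markers were higher in 7 of 22 cases (median 0.56), and all 22 differences were positive. The mean of the list ran from 5.58 to 5.73 in H222P arrays and from 4.83 to 5.01 in WT arrays other than array 108, which read 5.74. Without array 108, 15 of the 22 were higher, without H222P array 6122 or WT array 25 or 50 there were 4, and without the others 5 or 6. *Lgals3*, galectin-3, read 7.12, 6.98, 6.61, 6.17 and 6.83 in H222P and 5.34, 5.84, 5.03, 4.94 and 4.72 in WT (2.96-fold, log2 difference 1.57, SE 0.21, adjusted p = 4.74e-05). *Gpnmb*, a glycoprotein of phagocytes, read 6.17, 5.93, 6.25, 5.55 and 6.06 in H222P and 4.54, 5.17, 4.45, 4.18 and 4.80 in WT (2.58-fold, log2 difference 1.37, SE 0.17, adjusted p = 2.25e-05). These 2 stayed apart from WT array 108 as well, while *Itgam* (1.01, adjusted p = 0.00793) and *Lyz2* (0.88, adjusted p = 0.0318) overlapped it, and *Lyz2* missed the threshold with any 1 of 7 arrays left out. Of the defining markers *Cd163* passed (0.67, adjusted p = 0.00265), and *Cd68*, *Adgre1*, *Csf1r* and *Mrc1* did not (0.120 to 0.184).

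In the antigen presentation list 4 of 15 genes were higher and none lower (median 0.10), and the 4 encode or load class II molecules, which present antigen to helper T cells. *H2-Ab1* read 8.07, 8.93, 8.32, 8.10 and 8.03 in H222P and 6.80, 7.22, 6.61, 6.42 and 6.53 in WT (2.98-fold, log2 difference 1.57, SE 0.21, adjusted p = 4.25e-05), and *H2-Aa*, *H2-Eb1* and *H2-DMa* were 2.31-, 1.94- and 1.71-fold higher (3.36e-04, 5.90e-05 and 7.11e-04). The count was 4 with each array left out as well. None of 18 genes of the interferon list passed in limma after adjustment, with 5 higher at an unadjusted p under 0.05, and none of 10 complement genes, with 3 higher and 1 lower. The levels of the macrophage list are given above, and the part of macrophages in these genes was not tested. Of 29 chemokines, cytokines and receptors 6 were higher and 2 lower. *Ccl8*, which attracts monocytes, read 5.12, 5.35, 4.90, 4.92 and 5.07 in H222P and 3.80, 3.99, 3.36, 3.27 and 3.24 in WT (2.91-fold, log2 difference 1.54, SE 0.21, adjusted p = 4.43e-05), and *Cx3cl1*, fractalkine, and *Tnfrsf12a*, the receptor for TWEAK, were 2.17- and 2.08-fold higher (3.19e-04 and 0.00559). *Ccl11*, eotaxin, was 1.42-fold lower (0.0135), and *Cxcl12* (−0.76) was lower but not in the 10 arrays alone (0.0940).

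Endothelial genes were lower as a group: 17 of 24 measured were lower and none higher, with a median difference of −0.57, and 16 or 17 with each array left out. A single member was higher without H222P array 601 or WT array 107. Skeletal muscle is dense in capillaries, whose growth and upkeep depend on VEGF made by the fibers. The mean of the list ran from 5.55 to 6.04 in H222P and from 6.41 to 6.54 in WT, with H222P array 601 lowest. *Kdr*, the main VEGF receptor, read 6.0, 5.27, 6.25, 6.46 and 6.29 in H222P and 6.90, 7.31, 7.33, 7.30 and 7.33 in WT (2.27-fold lower, log2 difference −1.18, SE 0.20, adjusted p = 4.76e-04). *Emcn*, endomucin of capillaries and veins, read 5.87, 5.65, 5.80, 6.23 and 6.24 in H222P and 6.81, 6.86, 7.05, 6.97 and 6.93 in WT (1.95-fold lower, log2 difference −0.96, SE 0.13, adjusted p = 3.37e-05). *Cdh5*, the cadherin of endothelial junctions, read 7.79, 6.77, 7.79, 7.98 and 7.92 in H222P and 8.42, 8.42, 8.50, 8.39 and 8.69 in WT (1.78-fold lower, log2 difference −0.83, SE 0.16, adjusted p = 0.00164). The groups of these 3 were apart. The transcription factors *Bcl6b* and *Sox18* were 2.82- and 2.09-fold lower (4.26 ± 0.28 against 5.75 ± 0.43 and 4.68 ± 0.30 against 5.75 ± 0.22), and *Pecam1* and *Tie1* 1.48- and 1.55-fold (0.00339 and 4.63e-04).

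Factors that act on vessels were lower as well: 8 of 12 angiogenic factors and receptors were lower and none higher (median −0.59), and 6 to 8 with each array left out. *Vegfa* itself read 7.82, 7.73, 8.26, 8.06 and 7.96 in H222P and 8.79, 8.65, 8.96, 8.75 and 8.67 in WT (1.74-fold lower, log2 difference −0.80, SE 0.09, adjusted p = 1.10e-05). *Nrp1*, a co-receptor for VEGF, *Aplnr*, the apelin receptor, and *Angpt1*, a ligand of the receptor Tie2, were 1.80-, 2.01- and 1.64-fold lower (1.84e-04, 0.00284 and 0.0112). Smooth muscle and pericyte genes were lower in 7 of 10 cases and higher in none (median −0.46), and 5 in the 10 arrays alone, and 1 was higher without H222P array 6121. The mean of that list ran from 6.70 to 6.91 in H222P and from 7.07 to 7.25 in WT. *Kcnj8*, a potassium channel of pericytes, read 6.68, 6.55, 5.91, 6.19 and 6.02 in H222P and 6.95, 7.41, 6.99, 6.85 and 7.14 in WT (1.74-fold lower, log2 difference −0.80, SE 0.15, adjusted p = 0.00167). *Myh11*, *Acta2* and *Rgs5* were 1.60-, 1.43- and 1.43-fold lower (7.34e-04, 0.00644 and 0.00273).

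**Figure D4:**
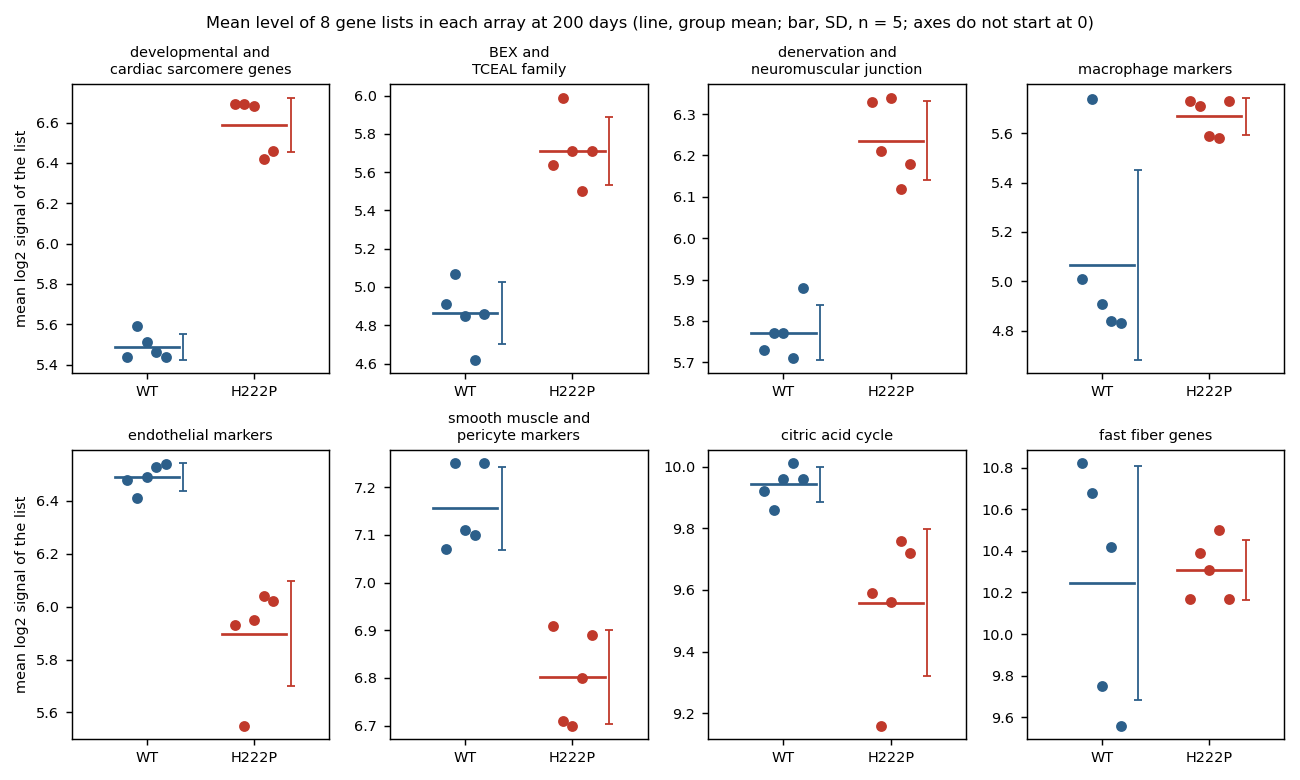
Mean log2 signal of 8 gene lists in each array at 200 days (y axes, log2; points, arrays; lines, group means; bars, SD, n = 5; axes do not start at 0). The endothelial, perivascular and citric acid cycle lists lay lower in every H222P array than in any WT array, WT array 108 reached the H222P level of the macrophage list at 5.74, and the fast fiber list overlapped.

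Genes of mitochondrial metabolism were lower by small amounts. Of 12 citric acid cycle genes 9 were lower and none higher (median −0.42). The mean of the list ran from 9.16 to 9.76 in H222P and from 9.86 to 10.01 in WT, with H222P array 601 lowest, and 8 to 10 genes were lower with each array left out but 3 in the 10 arrays alone. *Suclg2*, of succinyl-CoA ligase, read 7.87, 7.27, 7.75, 8.12 and 8.01 in H222P and 8.37, 8.18, 8.68, 8.48 and 8.53 in WT (1.56-fold lower, log2 difference −0.64, SE 0.14, adjusted p = 0.00459), and *Dlst* of the oxoglutarate complex was 1.40-fold lower (0.00595). *Idh2* (−0.58) missed the threshold without H222P array 601 or WT array 50 (0.0606 to 0.0704), and *Ogdh* (−0.46) without H222P array 609 or WT array 107 or 25 (0.0514 to 0.0781), and both in the 10 arrays alone (0.0796 and 0.139). Of 64 genes of oxidative phosphorylation 12 were lower and none higher (median −0.18). That count was 1 in the 10 arrays alone, 17 with the arrays centred on their medians and 25 with an intensity trend in the variance. *Ndufb11* of complex I was 1.51-fold lower (log2 difference −0.60, SE 0.11, adjusted p = 0.00106), while *Uqcrfs1*, *Ndufs8* and *Ndufa10* (−0.47, −0.46 and −0.35) missed the threshold in the 10 arrays alone (0.0551 to 0.0834).

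In fuel use, 9 of 30 genes of fatty acids and lipid storage were lower and 1 higher (median −0.30), and 4 and 2 in the 10 arrays alone. The mean of 12 adipocyte markers ran from 6.82 to 7.41 in H222P and from 6.95 to 8.27 in WT, with WT array 107 highest, and its part in these genes was not tested. Besides *G0s2*, *Dgat2*, which completes triglycerides, read 7.21, 6.81, 7.10, 7.49 and 7.65 in H222P and 8.24, 7.80, 8.20, 8.40 and 8.36 in WT (1.93-fold lower, log2 difference −0.95, SE 0.14, adjusted p = 1.63e-04), and *Lpl*, the lipase that takes fat from blood, was 1.64-fold lower (log2 difference −0.72, SE 0.15, adjusted p = 0.00371). *Cpt2* (−0.66) missed the threshold in the 10 arrays alone (0.0552), and *Angptl4*, an inhibitor of Lpl (1.06), with any 1 of 5 arrays left out. *Hk2*, the hexokinase that traps glucose, read 7.97, 7.91, 8.15, 8.31 and 8.24 in H222P and 8.92, 8.81, 9.17, 9.33 and 8.73 in WT (1.84-fold lower, log2 difference −0.88, SE 0.11, adjusted p = 3.34e-05). *Pgam2* (−0.30) was the other lower gene of 18 in glycolysis and missed the threshold with any 1 of 8 arrays left out. *Nmnat1*, which makes NAD in the nucleus, was 1.43-fold lower (log2 difference −0.51, SE 0.11, adjusted p = 0.00306). *Nampt*, the gateway enzyme of NAD salvage (−0.45, adjusted p = 0.0203), missed the threshold without H222P array 601 or WT array 108 or 24, and *Nnt* (−0.72, adjusted p = 0.0218) with any 1 of 4 arrays left out, so that 1 of 3 lower genes of 12 in NAD metabolism was left without H222P array 601 or WT array 24.

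Markers of other cell types in the muscle differed from list to list. Among 13 fibroblast markers 1 was higher (7.69%, against 5.90% of all genes), *Mfap5* of elastic microfibrils (0.68, adjusted p = 0.00976), with 2 higher without WT array 108. The defining *Pdgfra*, *Dpt* and *Pi16* did not pass (0.247 to 0.848). Among 14 tendon and cartilage markers 3 were higher (21.4%), among them *Cilp* (1.0, adjusted p = 0.00249) and the tendon factor *Scx* (0.70, adjusted p = 0.00744), and 2 lower (14.3%), *Chad* and *Fmod*. *Lep* was lower among 12 adipocyte markers (−0.98, adjusted p = 0.0431) and missed the threshold with any 1 of 7 arrays left out, *Cpa3* among 8 of neutrophils and mast cells (−0.62, adjusted p = 0.0216) without H222P array 609 or WT array 108, and no marker of 10 for Schwann cells and nerve, 9 for lymphocytes or 2 for red blood cells passed in limma, and at an unadjusted p under 0.05 there was 1 higher gene, of the Schwann cell list. The defining markers *Cd3e*, *S100a8* and *Ly6g* lay between 1.85 and 3.67 in all 10 arrays, in the lowest part of the scale.

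At 80 days far fewer genes passed the same test, with 77 higher (0.347%) and 24 lower (0.108%) at the adjusted p. Of the 191 genes called higher at 200 days 179 had a positive difference at 80 days, with a median of 0.46 against 1.27, and 35 passed the test there. Of the 25 lower genes 18 had a negative difference and 4 passed. The difference between the ages was tested by the interaction, which passed for 194 genes (0.875%), 115 further up (0.518%) and 79 further down (0.356%), and for 259 probe sets (0.721%), or 162 without WT array 24. It passed for 70 of the 191 and 12 of the 25. Since those genes were picked for a large difference at 200 days, these shares are a description. *Myl10* (−1.34), *Pcp4* (−1.47), *Eda2r* (1.27), *Ahnak2* (1.54) and *S100a4* (1.35) were among those that had passed at 80 days already (adjusted p = 9.80e-06 to 0.00404), and their interaction did not pass. *Nup210l* was 2.68 at 80 days and further up at 200 (interaction 1.37, adjusted p = 0.00626). In contrast *Mt2* (−0.14) and *Mt1* (−0.46) did not pass at 80 days and had an interaction of 2.56 and 1.53 (0.00101 and 3.71e-04). *Bcl6b* (0.94 at 80 days), *Kdr* (0.26), *Emcn* (−0.11) and *Vegfa* (−0.08) had interactions of −2.43, −1.44, −0.85 and −0.72 (8.02e-04, 0.0185, 0.0263 and 0.0148).

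**Figure D5:**
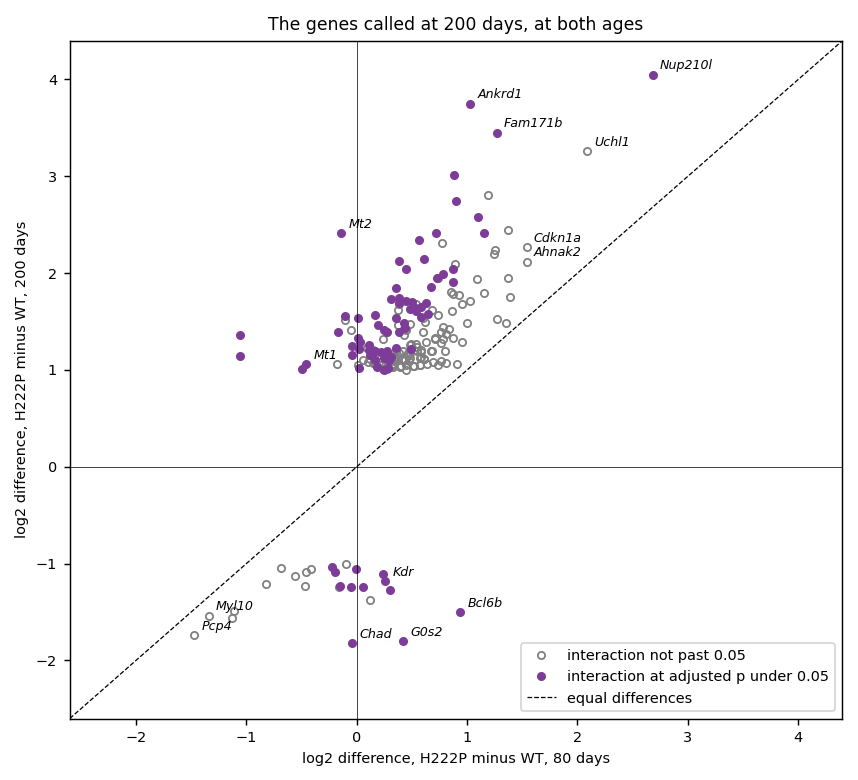
Log2 difference between H222P and WT at 200 days (y axis) against that at 80 days (x axis) for the 216 called genes. Purple points passed the interaction at an adjusted p under 0.05, and the dashed line marks equal differences. Most higher genes gather between 0 and 1 at 80 days and above 1 at 200 days, and *Nup210l* lies at 2.68 and 4.05.

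The study picked 21 of the measured genes for RT-qPCR, some of them from these arrays, so their direction is no independent evidence. By the arrays 12 were higher and 4 lower. Besides those above, *Ahnak2*, a large scaffold protein, read 7.74, 7.77, 7.66, 7.45 and 7.62 in H222P and 5.13, 5.93, 5.90, 5.16 and 5.51 in WT (4.36-fold, log2 difference 2.12, SE 0.19, adjusted p = 3.10e-07), and *Prkaa1*, a catalytic subunit of the energy sensor AMPK, was 1.45-fold higher (log2 difference 0.54, SE 0.11, adjusted p = 0.00296). *Egr1*, an early response gene, read 4.74, 5.21, 4.89, 5.38 and 5.26 in H222P and 5.74, 5.77, 5.35, 6.58 and 7.08 in WT (log2 difference −1.01, adjusted p = 0.0952), and the groups overlapped. The reference gene *Rplp0* did not pass (0.05, 0.918). *Mybph*, a myosin-binding protein whose probe set carries no symbol in the annotation and was named through the study's list of probe sets, is not among the 22180 genes and read 8.10, 7.56, 7.33, 7.44 and 7.37 in H222P and 5.24, 4.76, 4.15, 4.52 and 3.95 in WT (8.21-fold, log2 difference 3.04, SE 0.28, adjusted p = 4.69e-07).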

How the data were processed

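RNA of soleus was hybridized to GeneChip Mouse Gene 2.0 ST arrays. The authors deposited log2 signals per probe set after robust multichip analysis. Software named in their methods is GeneTraffic 3.0 with the Transcriptome Analysis Console, and in the submitters' processing notes Partek. All 35916 probe sets of the 20 arrays were used as deposited. By the array annotation 23521 carried 1 symbol, 1820 several and 10575 none. These last are unnamed here.

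In R 4.3.3, limma 3.58.1 fitted a mean for each genotype and age over the 20 arrays (lmFit, eBayes). Contrasts gave the genotype difference at each age and their interaction. P was adjusted by Benjamini-Hochberg over all probe sets. Adjusted p-values are from this fit unless another choice of arrays is named beside them. The steps were tested on simulated data. The members and the gene lists were chosen with earlier results of these data known, so counts over lists describe and support nothing. Named are the 15 highest and 15 lowest called genes whose groups do not overlap, and the 4 largest changes of each list in each direction (all where 5 or fewer). Of these *Tgfb3* (0.54), *Rrm2* (0.86), *Pdxp* (0.53), *Krt8* (0.45), *Psmc6* (0.36) and *Psmd11* (0.32) are not described above. All but *Tgfb3* missed the threshold with an array left out or in the 10 arrays alone. Also named are the genes of the study's RT-qPCR, *Cfl1*, *Cfl2*, *Pfn1* and *Wasl* of its actin work, *Lmna* and some of the defining cell markers. *Actr2*, the gene of ARP2 in that actin work, is not given. Alternatives covered the arrays in the fit, the variance, normalization, a filter on dim probe sets, the choice of probe set and each array left out. Mature miRNAs and promoter windows come from RefSeq tables of GRCm38.p6. The number of arrays limits the precision.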

Additional observations from a re-analysis of the deposited data

Results flagged for a closer look

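By the interaction (limma, adjusted p under 0.05), the genotype difference differed between 200 and 80 days for 42 of 187 genes named by rule. It was further up for Mt2 (2.56) and Mt1 (1.53), Ankrd1 (2.73), Fam171b (2.17), Mcm6 (1.79), Ddit4 (2.21), Klk1 (1.85), Myl4 (1.75), Ccdc110 (2.12), Psca (1.69), Trp53inp1 (1.66), Myh8 (1.59), Slc7a5 (1.56), Ccl8 (1.53), Tnfrsf23 (1.48), H2-Ab1 (1.40), Nup210l (1.37), Tnnt2 (1.30), Bex1 (1.26), Myog (1.11), Sat1 (1.07), Gdf11 (1.04), H2-Eb1 (0.97), Igf2 (0.93), Hspb8 (0.81), Sesn1 (0.77) and Pdlim5 (0.54). It was further down for Bcl6b (−2.43), G0s2 (−2.22), Chad (−1.78), Kbtbd13 (−1.57), Kdr (−1.44), Tbc1d4 (−1.35), Myct1 (−1.30), Ppif (−1.18), Bhlhe40 (−1.09), Car8 (−1.08), Emcn (−0.85), Nrp1 (−0.83), Vegfa (−0.72), Fhl3 (−0.69) and Pdlim7 (−0.66). Up and down are the direction from the difference at 80 days, which for some genes had the other sign. Over all genes the interaction passed for 0.875%. Most of the named genes were picked for their difference at 200 days, so the count of 42 is a description.

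In 32 of 400 groups of 5 arrays tested, 1 array stood far from the other 4, where chance gives about 20. For the marker lists it was 7 of 20 groups, where chance gives about 1. The value given is the gap to the nearest array over the range of the group. WT array 108 was high for Ankrd1 (0.801), Thbs4 (0.80), Postn (0.791), Mymk (0.780), Col3a1 (0.780), Lyz2 (0.763), Chad (0.755), H2-Eb1 (0.811), the macrophage list (0.798) and the second principal component (0.904), and low for Cdkn1a (0.745). H222P array 601 was low for Myl3 (0.828), Smad3 (0.760), Ndufs8 (0.735), Dlst (0.730) and the endothelial list (0.769), and high for Fbxo30 (0.765) and Klhl40 (0.743). H222P array 139 was low for Mcm6 (0.771) and the red blood cell list (0.734), and high for Ryr3 (0.809) and the neutrophil and mast cell list (0.841). WT array 107 was low for Kdr (0.911) and Cpt2 (0.724) and high for the adipocyte list (0.740), in which H222P array 609 was high as well (0.720). Array 609 was also high for the Schwann cell list (0.856). WT array 24 was low for Itga7 (0.877) and Tmem43 (0.792), H222P array 6121 for Pfn1 (0.923) and H222P array 6122 for H2-Aa (0.750), and WT array 50 was high for Uchl1 (0.792).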

How the results depend on the processing

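The counts of called probe sets (337; 294 higher, 43 lower) and genes (216; 191 higher, 25 lower) stayed within 1.5 times of the main values under all alternatives other than the filter and the fold limit. With probe sets of a mean log2 signal of at least 5 only, 196 probe sets were called (159 higher) and 134 genes (113 higher). This filter takes dimmer probe sets out of the fit, so those that had been called left the count. Higher probe sets went from 294 to 159 and lower ones from 43 to 37. With no fold limit 2992 probe sets passed, 1815 higher and 1177 lower. With each array left out, 301 to 387 probe sets (268 to 331 higher, 33 to 56 lower) and 203 to 249 genes (179 to 216 higher, 21 to 33 lower) were called. The interaction, 259 probe sets, ran from 162 without WT array 24 to 320 without H222P array 6121 among fits with an array left out, and was 379 with the filter. The cause was not tested.

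Of 180 named genes at the adjusted p, 127 kept it under each alternative that held their probe set, of 18 in all. The filter on dim probe sets removed some genes from the fit, *Nup210l* among them, which left 17 alternatives for these. In the fit of the 10 arrays alone 44 missed it, and 37 missed it without at least 1 array, between 10 (H222P array 6121) and 24 (H222P array 139, WT array 50) per array. The sign of 2 genes that never passed turned. *Rplp0* went to −0.01 with arrays 6121 and 6122 averaged, −0.02 with the mean of its probe sets, and −0.06 to 0.26 with an array left out. *Cfl2* went to −0.01 with those arrays averaged, −0.02 with median centring, and −0.02 to 0.10 with an array left out. No paired analysis was possible because the groups share no replicate numbers. Signal over background could not be judged, so the weakest signals may not be above background.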

Other observations

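Small nucleolar RNAs were higher in part. Of 80 snoRNA genes measured 17 were higher and none lower at the adjusted p (limma), against 5.90% higher over all genes, and 4 were called. These RNAs guide the chemical marking and cutting of ribosomal RNA. *Snord104* read 9.77, 9.63, 9.68, 9.47 and 9.44 in H222P and 7.63, 8.09, 7.65, 7.95 and 7.69 in WT (3.46-fold, log2 difference 1.79, SE 0.11, adjusted p = 3.01e-09), and *Snora7a* 6.33, 6.02, 6.22, 5.80 and 5.96 and 4.22, 4.50, 4.42, 3.52 and 3.99 (3.83-fold, log2 difference 1.94, SE 0.20, adjusted p = 1.95e-06). Both groups were apart, and both genes had passed at 80 days (1.15 and 1.09, adjusted p = 1.04e-05 and 0.0162). *Snora20* and *Snord118* were 2.12- and 2.05-fold higher (0.00384 and 0.00995). *Rny1*, a small RNA of Ro particles, was 2.38-fold higher (log2 difference 1.25, SE 0.21, adjusted p = 3.79e-04). These genes were named after their values were seen.

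Among 15 genes of the circadian clock 1 was higher (6.67%, against 5.90% of all genes) and 1 lower (6.67%, against 4.13%). *Bhlhe40*, a repressor of the clock that also responds to low oxygen, read 6.75, 6.83, 7.06, 7.37 and 7.46 in H222P and 7.78, 7.74, 7.99, 7.98 and 7.66 in WT (1.67-fold lower, log2 difference −0.74, SE 0.13, adjusted p = 6.58e-04). *Clock* (0.44, adjusted p = 0.0488) missed the threshold with any 1 of 9 arrays left out. *Igfbp7*, a binding protein for growth factors that vessels make, was 1.26-fold lower (0.0190) and missed it without WT array 108 or 25 (0.0529 to 0.0562).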
